A study of Homo sapiens with 16 samples.

Results

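BMP4, SOSTDC1 and MSX1 were followed across an array study of AsPC-1, an established human pancreatic adenocarcinoma cell line. They encode a secreted ligand, a secreted antagonist and a homeobox transcription factor, all tied to bone morphogenetic protein (BMP) signalling. Each of the 3 genes was read by a single Affymetrix probe set annotated to that gene alone, 3 of the 9554 probe sets in the deposited table. After 1 probe set was kept per gene, they were 3 of 5250 genes. The genes were picked with their ICG-001 responses known, so their values on the drug arrays, between ICG-001 and DMSO and between times, are given as description and without a test. Earlier results of these data were known at that choice, so the siRNA p-values may not be independent of it either.

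ICG-001 at 10 µM was given for 6 h and for 24 h, and the vehicle DMSO alone for the same times. Each of these 4 groups had 3 arrays. In a separate experiment cells were transfected by lipofection with 20 nM CTNNB1 siRNA or 20 nM control siRNA and read at 48 h, with 2 arrays per group. ICG-001 is a compound known to bind CBP, a coactivator, and to keep β-catenin, the product of CTNNB1, from it. All arrays came from this 1 cell line, and arrays within a group are labelled as biological replicates, with no word on whether the cultures were separate. P-values therefore measure the spread between these arrays, which may be partly technical.

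Median intensity was 20.62 to 28.6 on the 12 drug arrays and 12.7 to 13.05 on the 4 siRNA arrays. Mean intensity was higher on the ICG-001 arrays, at 163.7 to 178.9, than on the DMSO arrays, at 131.7 to 136.8. CTNNB1 itself had no probe set of its own in the table, and its knockdown was not checked on that transcript. Of 14 listed ductal and epithelial markers 5 were measured, and their summed intensity was 7304 to 7632 with ICG-001 and 4171 to 4422 with DMSO at 6 h. At 24 h it was 9105 to 9379 with ICG-001 and 3552 to 4092 with DMSO, and it was 1427 to 1452 with CTNNB1 siRNA and 1569 to 1713 with control siRNA. S100P alone spanned 685.69 to 6909.18 over the arrays, KRT7 80.25 to 1590.35 and MUC1 241.61 to 1423.61. CDH1 spanned 8.68 to 370.97 and KRT19 7.23 to 109.57. The sum is thus weighted to the bright genes, S100P most, and does not show the markers changing as a set. The part of these markers in the results was not tested. Measured markers were 5 of 9 for fibroblasts, 2 of 8 for leukocytes, 2 of 6 for endothelium, 1 of 7 for acinar cells and 0 of 6 for islets. Among the fibroblast markers, ACTA2 spanned 56.88 to 285.48, COL1A1 21.26 to 101.59 and DCN 8.61 to 98.06. THY1 and COL3A1 stayed at or below 36.46. The leukocyte pair PTPRC and MS4A1 stayed at or below 31.74 on every array. In bulk RNA, fewer cells with a transcript and less of it per cell cannot be told apart.

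BMP ligands bind paired type I and type II serine/threonine kinase receptors, which phosphorylate SMAD1, SMAD5 and SMAD9. These join SMAD4 and enter the nucleus, where genes such as the ID and MSX families respond. Secreted antagonists bind the ligands outside the cell. SOSTDC1 is such an antagonist and also binds the Wnt co-receptors LRP5 and LRP6, so that it touches both pathways. In mouse tooth and limb development BMP4 induces Msx1, and BMP4 is itself on common lists of Wnt/β-catenin target genes.

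BMP4, the ligand, was lower with ICG-001 at both times and lower still, relative to its own control, with CTNNB1 siRNA. At 6 h its intensity was 1411.44, 1393.18 and 1384.17 with ICG-001, against 2808.01, 2896.81 and 2811.41 with DMSO. At 24 h it was 2246.71, 2275.52 and 2294.29 with ICG-001, against 4374.1, 4136.35 and 4347.12 with DMSO. The ICG-001 arrays lay below the DMSO arrays without overlap at either time, which held for 11.4% of all genes at 6 h and 11.7% at 24 h, and the arrays of a group were within a few percent of each other.

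As means, BMP4 with ICG-001 stood at 49.2% of DMSO at 6 h and at 53% at 24 h. The fitted log2 change, ICG-001 minus DMSO, was -1.40 ± 0.10 (± SE) at 6 h and -1.40 ± 0.10 at 24 h. These fitted values come from log2(intensity + 16) after quantile normalization over the 16 arrays. That step gave all arrays the same distribution and so removed the higher mean intensity of the ICG-001 arrays. Whether that difference was technical or came with the drug was not tested. In the deposited scaling the BMP4 changes were -1.02 and -0.91, the 24 h value being over 1.5 times smaller than the normalized one. The difference between the drug effects at both times was -0.01 ± 0.14.

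CTNNB1 siRNA gave BMP4 an intensity of 645.59 and 792.83, against 2300.19 and 3008.2 with control siRNA. Both knockdown arrays lay below both control arrays, as for 20.4% of all genes, by more than the gap between the arrays of either group. The mean was 719 ± 104 with CTNNB1 siRNA and 2650 ± 501 with control siRNA (SD, n = 2 each). BMP4 fell by 2.15 on the log2 scale (SE 0.12, 95% interval -2.40 to -1.90, limma adjusted p = 7.86e-10). The SE and interval rest on a spread pooled over all groups. The normalized log2 SD of BMP4 was 0.22 with CTNNB1 siRNA and 0.39 with control siRNA. It was 0 to 0.04 in the ICG-001 and DMSO groups, so the interval may be too narrow for the siRNA arrays. The change was -1.88 with the siRNA arrays fitted alone (limma adjusted p = 9.69e-05) and -1.86 in the deposited scaling. BMP4 ranked 5 from the lowest among the fitted changes of the 5250 genes.

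With CTNNB1 siRNA, 1 of the 3 genes was thus called, where 12% of all genes were called in either direction, 6.19% as rises and 5.83% as falls. Those were 325 rises and 306 falls, with 264 and 213 in the deposited scaling and 150 and 153 with the siRNA arrays fitted alone. The BMP4 change ranged from -2.45 to -1.88 when each siRNA array was left out in turn, beyond its 95% interval at both ends. The difference between the siRNA change and the drug changes was not tested, because the drug values chose the gene.

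**Figure D1:**
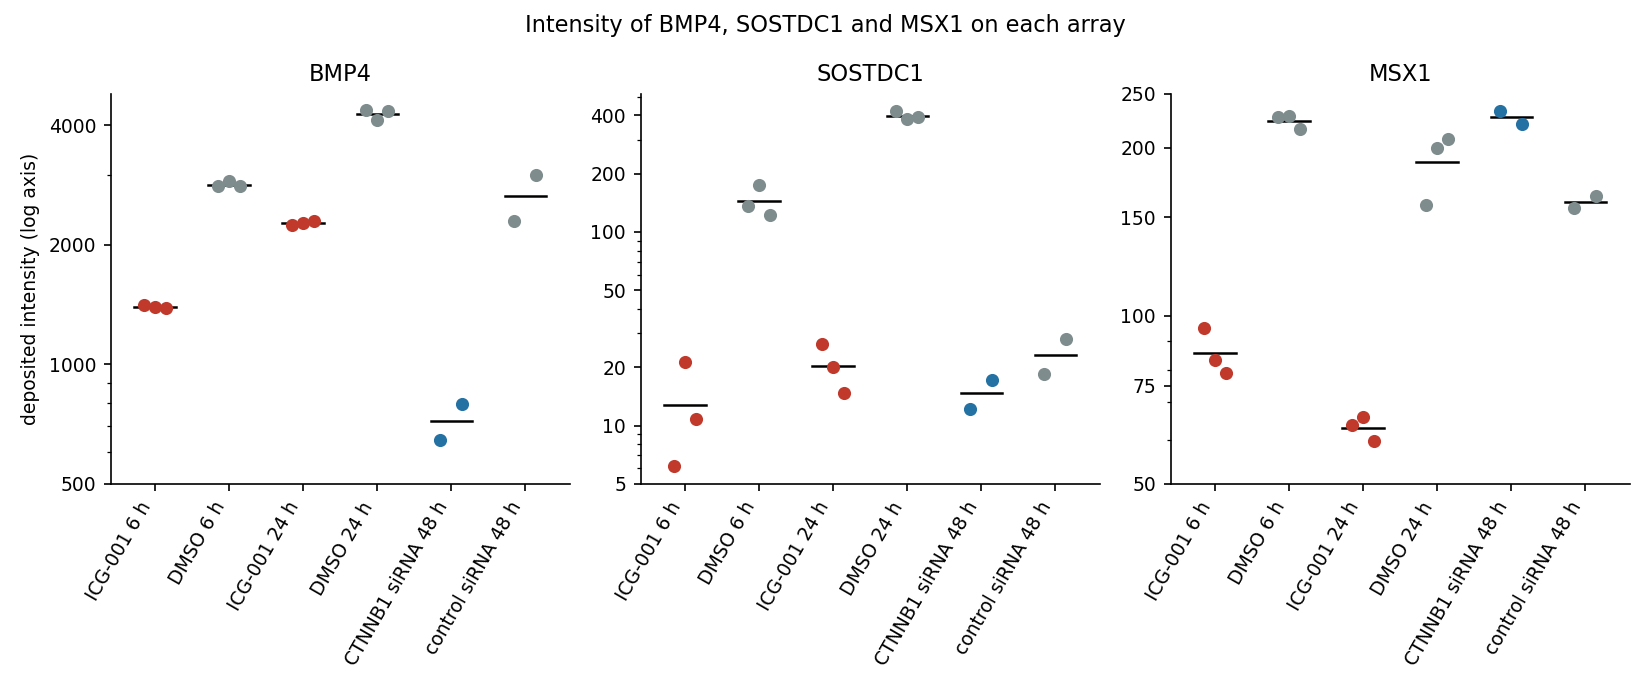
Deposited intensity (log axis, scaled for each panel) of BMP4, SOSTDC1 and MSX1 on each array, by group, with points for arrays and bars for group means. BMP4 sits between 645.59 and 792.83 on the CTNNB1 siRNA arrays, SOSTDC1 is between 385.46 and 420.36 on the DMSO 24 h arrays, and MSX1 is between 59.67 and 65.84 on the ICG-001 24 h arrays.

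SOSTDC1, the antagonist, was near the dim end of the scale wherever ICG-001 was present. At 6 h its intensity was 6.17, 21.38 and 10.82 with ICG-001, against 136.25, 175.34 and 122.93 with DMSO. At 24 h it was 26.46, 20.05 and 14.65 with ICG-001, against 420.36, 385.46 and 391.98 with DMSO. The ICG-001 arrays lay below the DMSO arrays without overlap, as for 11.4% of all genes at 6 h and 11.7% at 24 h. The ICG-001 arrays scattered widely around low values, from 6.17 to 21.38 at 6 h.

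The values used here hold no detection calls, so whether SOSTDC1 with ICG-001 was above background is not known. As means, its intensity with ICG-001 was 8.83% of DMSO at 6 h and 5.11% at 24 h. These are ratios of group means and set no upper limit on what remained. Its fitted log2 changes were -2.44 ± 0.20 and -3.74 ± 0.20 (± SE), with 16 added the lowest of all 5250 genes at both times. Because its ICG-001 intensities were close to the 16 added before log2, the sizes moved with that number. They were -3.51 and -4.65 with 1 added, and -1.38 and -2.57 with 64 added. The drug effect at 24 h minus that at 6 h was -1.31 ± 0.28.

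In the siRNA experiment SOSTDC1 was dim in both groups. It read 12.23 and 17.1 with CTNNB1 siRNA, against 18.43 and 27.91 with control siRNA. The knockdown arrays were the lower ones and did not overlap the controls, as for BMP4 and for 20.4% of all genes. The fitted change of -0.53 ± 0.24 (95% interval -1.04 to -0.03) missed the threshold (limma adjusted p = 0.187). Adding 64 in place of 16 gave -0.27, and adding 1 gave -0.79, with the adjusted p above 0.05 in both. It was -0.35 in the deposited scaling and -0.30 without control siRNA replicate 2.

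MSX1, a homeobox factor that acts mainly as a transcriptional repressor, was lower with ICG-001 at both times. At 6 h its intensity was 94.93, 83.33 and 79.06 with ICG-001, against 226.54, 228.05 and 215.6 with DMSO. At 24 h it was 63.68, 65.84 and 59.67 with ICG-001, against 157.57, 199.82 and 207.31 with DMSO. The ICG-001 arrays lay below the DMSO arrays without overlap, as for 11.4% of all genes at 6 h and 11.7% at 24 h. DMSO replicate 1 at 24 h was the lowest of the DMSO arrays.

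MSX1 with ICG-001 stood at 38.4% of the DMSO mean at 6 h and at 33.5% at 24 h. The fitted log2 changes were -1.41 ± 0.11 at 6 h and -1.56 ± 0.11 at 24 h (± SE), and the difference between them was -0.14 ± 0.16. In the deposited scaling the 6 h change was -1.24.

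With CTNNB1 siRNA the sign for MSX1 was the other one. Its intensity was 232.72 and 220.67 with CTNNB1 siRNA, against 155.79 and 164.12 with control siRNA. Both knockdown arrays lay above both controls, as they did for 23.8% of all genes. The fitted change of 0.39 ± 0.13 (95% interval 0.10 to 0.67) missed the threshold (limma adjusted p = 0.0709). It passed in the deposited scaling (0.46, adjusted p = 0.0204), with each array centred on its median (0.46, adjusted p = 0.0419), with 64 added before log2 (0.33, adjusted p = 0.0362) and without dim genes (adjusted p = 0.0479). Over all alternatives run on complete groups, its adjusted p was between 0.0204 and 0.106, and it missed the threshold in 7 of these 11. With the siRNA arrays fitted alone it was 0.45 (limma adjusted p = 0.0577). Leaving out each siRNA array in turn gave 0.33 to 0.43.

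**Figure D2:**
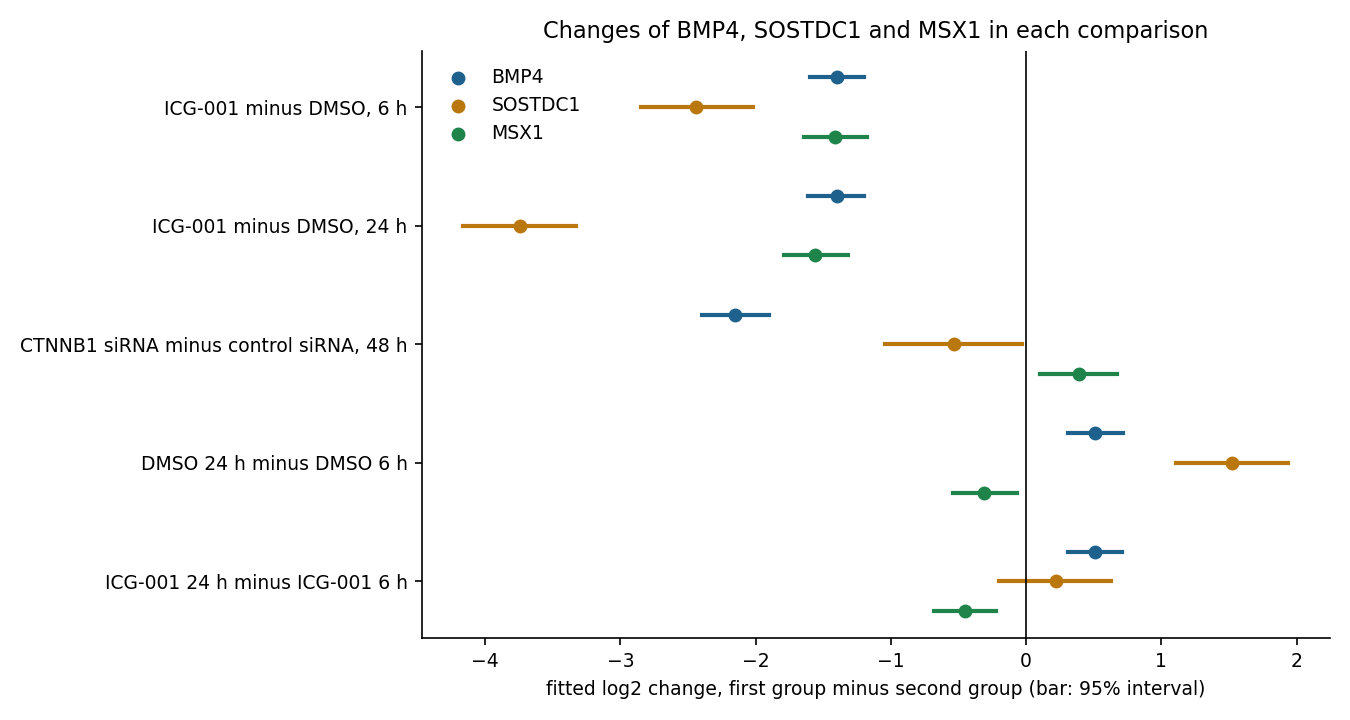
Fitted log2 change of each gene in 5 comparisons, first named group minus second named group, with bars for the 95% interval. For comparisons on the drug arrays the bars are description and no test, because the genes were picked with their ICG-001 responses known. BMP4 lies at -2.15 with CTNNB1 siRNA, where SOSTDC1 is at -0.53 and MSX1 at 0.39, while all 3 genes lie at -1.40 or lower with ICG-001.

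Set among all genes tested, the 3 genes were in the lower tail with ICG-001 by choice. At 6 h the median change over all genes was -0.02, with the middle 80% between -0.35 and 0.31. At 24 h the median was -0.02, and the middle 80% lay between -0.46 and 0.43. With CTNNB1 siRNA the middle 80% lay between -0.47 and 0.47. MSX1 lay inside that range, SOSTDC1 just outside it and BMP4 far outside.

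**Figure D3:**
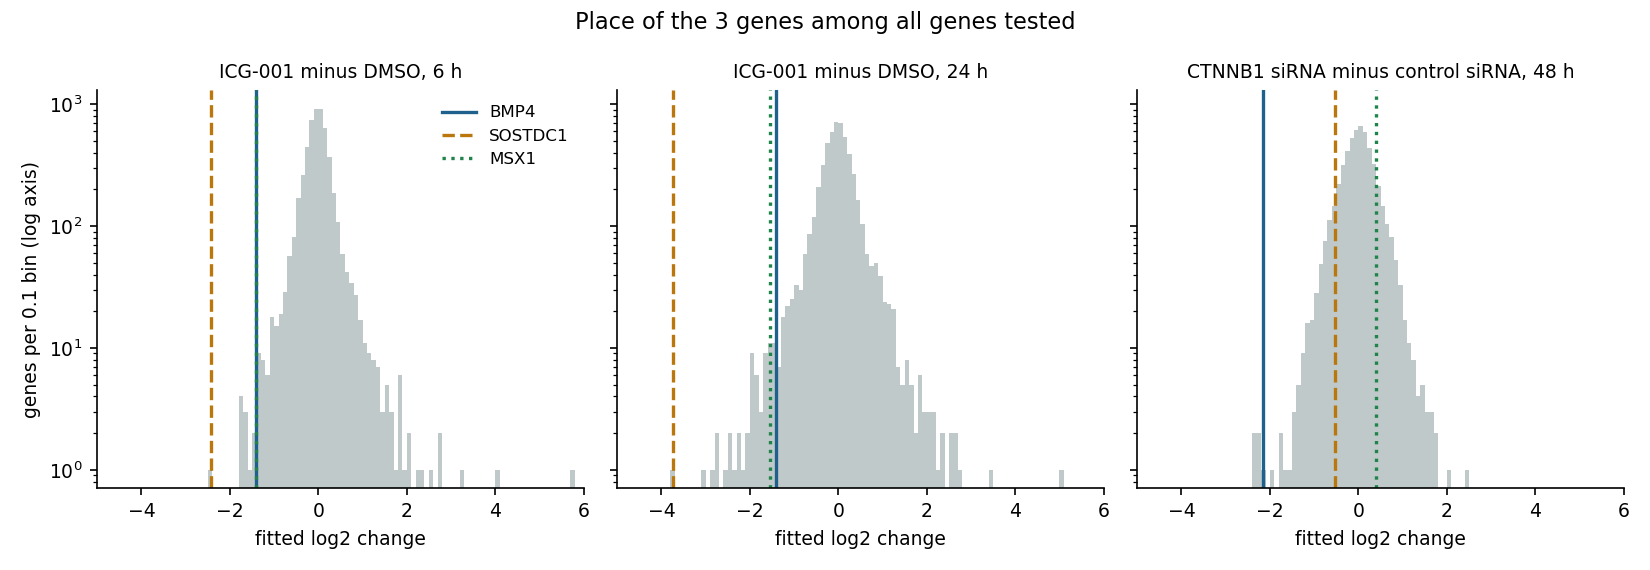
Number of genes per bin of fitted log2 change (log axis) for ICG-001 minus DMSO at 6 h and 24 h and for CTNNB1 siRNA minus control siRNA at 48 h, with a line for each of the 3 genes. At 6 h the BMP4 line (-1.40) and the MSX1 line (-1.41) coincide. With CTNNB1 siRNA the lines part, BMP4 at -2.15 and MSX1 at 0.39.

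Levels also differed between the times in culture. In DMSO, BMP4 was at 4290 ± 130 at 24 h and 2840 ± 50.3 at 6 h (SD, n = 3 each), a log2 change of 0.51 ± 0.10 (SE). SOSTDC1 was at 399 ± 18.6 at 24 h and 145 ± 27.2 at 6 h, a change of 1.52 ± 0.20. MSX1 was 188 ± 26.8 at 24 h and 223 ± 6.79 at 6 h, a change of -0.31 ± 0.11 that was -0.18 without DMSO 24 h replicate 1. These arrays are the controls of the drug comparisons, so the time changes in DMSO and the drug values are not independent.

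Under ICG-001, BMP4 was at 2270 ± 24.0 at 24 h and 1400 ± 13.9 at 6 h, a log2 change of 0.51 ± 0.10. SOSTDC1 was 20.4 ± 5.91 at 24 h and 12.8 ± 7.79 at 6 h, with overlapping arrays and a change of 0.22 ± 0.20. MSX1 was 63.1 ± 3.13 at 24 h and 85.8 ± 8.21 at 6 h, a change of -0.45 ± 0.11 that was -0.28 with 64 added before log2. BMP4 thus differed between the times by 0.51 under ICG-001 and by 0.51 in DMSO. For SOSTDC1 the fitted values were 0.22 under ICG-001 and 1.52 in DMSO. Its ICG-001 intensities were close to the number added before log2, and there were no detection calls. The 0.22 became 0.49 with 1 added and 0.08 with 64 added. Whether SOSTDC1 changed with time under ICG-001 therefore cannot be read from these values.

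Ordered by their mean normalized log2 level, the groups ran differently for each gene. BMP4 was highest in DMSO 24 h (12.15), followed by control siRNA (11.85 ± 0.39 SD), DMSO 6 h (11.63), ICG-001 24 h (10.74), ICG-001 6 h (10.24) and CTNNB1 siRNA (9.70 ± 0.22). The only neighbours with overlapping arrays there were control siRNA and DMSO 6 h. BMP4 had the same normalized value on all DMSO 24 h arrays, because it held the same rank on each, so its spread there is better read from the intensities.

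SOSTDC1 ran from DMSO 24 h (8.74 ± 0.06) and DMSO 6 h (7.21 ± 0.29) to control siRNA (5.81 ± 0.33), CTNNB1 siRNA (5.28 ± 0.24), ICG-001 24 h (4.99 ± 0.26) and ICG-001 6 h (4.78 ± 0.35). Arrays overlapped between CTNNB1 siRNA and ICG-001 24 h and between ICG-001 24 h and ICG-001 6 h, and between no other neighbours. MSX1 was highest with CTNNB1 siRNA (8.21 ± 0.04), then DMSO 6 h (7.88 ± 0.04), control siRNA (7.82 ± 0.07), DMSO 24 h (7.57 ± 0.22), ICG-001 6 h (6.47 ± 0.14) and ICG-001 24 h (6.02 ± 0.05). DMSO 6 h and control siRNA overlapped there. Experiment, transfection and time differ together between the drug and siRNA arrays and cannot be told apart in these orders.

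Over the 12 drug arrays the log2 levels of BMP4 and SOSTDC1 had a Pearson r of 0.97, those of SOSTDC1 and MSX1 0.84 and those of BMP4 and MSX1 0.82. Over all 16 arrays these were 0.81, 0.52 and 0.32. The arrays share their groups, and the genes were chosen for a like drug response, so these values only describe the profiles.

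The genes most like each of the 3 over all 16 arrays differed between them. RNF43, which marks Frizzled receptors for removal from the cell surface, was nearest to BMP4 (r = 0.966), followed by LONRF2 (0.933), RAD18 (0.895), PPP1R1B (0.885) and KRT23 (0.88). RNF43 was nearest to BMP4 on the 12 drug arrays too (0.993). Nearest to SOSTDC1 were HSPA12A (0.96), ACOX2 (0.954), ACSS1 (0.94), CUEDC1 (0.919) and IFIT1 (0.896). Nearest to MSX1 were RTN4IP1 (0.954), CDC25A (0.953), a phosphatase that activates cyclin-dependent kinases, DDX24 (0.946), FAM111B (0.932) and ESCO2 (0.922).

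On the 12 drug arrays alone, BMP4 was next most like CBX6 (0.991), TSHZ1 (0.99), CEMIP2 (0.989) and NREP (0.989). SOSTDC1 was most like TSHZ1 (0.986), HSPA12A (0.985), GRAMD1B (0.982), MUC12-AS1 (0.981) and SIPA1L3 (0.98). MSX1 was most like SLC35G1 (0.994), GASK1B (0.994), RTN4IP1 (0.993), AEN (0.988) and U2AF2 (0.987). The likeness did not extend to the siRNA arrays for every gene, as GASK1B stood at 0.00 ± 0.08 and SLC35G1 at -1.12 ± 0.13 with CTNNB1 siRNA, where MSX1 was at 0.39.

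Promoter sequence is shown for BMP4 and MSX1, whose drug changes were close in size and whose knockdown values had opposite signs. Each stretch is the 250 bases before a transcription start from RefSeq (GRCh38.p14), read along the gene. Of the 3 genes 2 had entries, with 3 start sites for BMP4 and 1 for MSX1. Capitals mark matches, on either strand, to 6 searched motifs. CTTTG is the core of the element bound by the TCF/LEF factors, the partners of β-catenin. CTTTGA is its longer form and overlaps it. GGCGCC is a GC-rich element bound by SMAD proteins. TAATTG is an element bound by homeobox factors such as MSX1. CCAAT and TATAAA are general promoter elements, the CCAAT box and the TATA box. The BMP4 stretch lies at chr14:53955051-53955300 on the minus strand, and the MSX1 stretch at chr4:4859415-4859664 on the plus strand.
BMP4: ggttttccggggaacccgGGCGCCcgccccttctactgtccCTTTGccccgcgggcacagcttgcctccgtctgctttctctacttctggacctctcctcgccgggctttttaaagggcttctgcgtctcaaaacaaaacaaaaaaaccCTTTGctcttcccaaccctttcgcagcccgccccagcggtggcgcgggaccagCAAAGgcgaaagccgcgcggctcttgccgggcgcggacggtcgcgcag
MSX1: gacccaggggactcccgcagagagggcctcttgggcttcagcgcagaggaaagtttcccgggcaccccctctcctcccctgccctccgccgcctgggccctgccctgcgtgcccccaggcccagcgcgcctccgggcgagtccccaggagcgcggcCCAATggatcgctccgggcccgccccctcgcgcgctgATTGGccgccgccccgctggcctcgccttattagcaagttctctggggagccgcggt
The BMP4 stretch held CTTTG at 3 places, along the gene at 209 to 205 and at 101 to 97 bases before the start, and on the opposite strand, printed as CAAAG, at 48 to 44. It held GGCGCC once, at 232 to 227 bases before the start. Neither of the other BMP4 start sites had any of these motifs in its window. The MSX1 stretch held CCAAT at 94 to 90 bases and ATTGG, its reverse complement, at 57 to 53 bases before the start, and no other motif.

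Such matches are common. Of 35116 RefSeq windows of this length, 42.1% held CTTTG, 11.2% CTTTGA, 16.4% GGCGCC, 6.7% TAATTG, 32% CCAAT and 10.7% TATAAA. A match describes letters in the window and marks no bound site.

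The other genes of the pathway were taken from lists by function, of which few members were in the deposited selection. The lists were chosen with earlier results of these data known, so their shares and p-values may not be independent of that choice. Outside the 3 genes, 21 of 75 listed BMP pathway genes were measured. With ICG-001 2 rose and 2 fell at 6 h (19% called, against 13.8% of all genes, of which 5.56% as rises and 8.23% as falls), and 2 rose and 3 fell at 24 h (23.8%, against 20.5%, of which 9.22% and 11.3%). With CTNNB1 siRNA 1 rose and 1 fell (9.52%, against 12%). The median change of these 21 genes was -0.06, 0.04 and 0.07, and that of all genes was -0.02, -0.02 and 0.01.

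The calls over all genes shifted with the scaling. At 6 h they were 292 rises and 432 falls after quantile normalization and 406 and 244 in the deposited scaling, and at 24 h 484 and 592 against 738 and 385. The count of BMP pathway genes that rose at 24 h was 5 in the deposited scaling.

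Among ligands, BMP6 and BMP5 were measured of 14 listed besides BMP4. BMP6, a ligand known for its control of hepcidin and iron, rose with ICG-001 while BMP4 was lower. Its intensity was 433 ± 18.9 with ICG-001 and 227 ± 3.22 with DMSO at 6 h (SD, n = 3 each; log2 change 0.82 ± 0.08 SE, limma adjusted p = 1.06e-07). At 24 h it was 850 ± 49.9 with ICG-001 and 165 ± 13.0 with DMSO (2.19 ± 0.08, adjusted p = 6.41e-14).

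The BMP6 effect was larger at 24 h by 1.38 ± 0.11 (interaction in limma, adjusted p = 8.09e-08), where 7.81% of all genes had a called interaction. With CTNNB1 siRNA, where BMP4 fell, BMP6 was at 129 ± 2.55 and control siRNA gave 139 ± 14.1 (SD, n = 2 each; -0.11 ± 0.09 SE, limma adjusted p = 0.557). BMP5 fell at 24 h only slightly, to 89.5 ± 3.69 with ICG-001, against 121 ± 11.5 with DMSO (-0.50 ± 0.13, limma adjusted p = 0.00943). Its other probe set gave -1.27.

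Among 13 listed receptors and co-receptors, BMPR2, ACVR2B and NEO1 were measured and none was called in the 3 main comparisons. NEO1 was dim, with group means of 6.25 to 14.6. BMPR2, a type II BMP receptor, was at -0.18 and 0.14 with ICG-001 at 6 h and 24 h and at 0.07 with CTNNB1 siRNA. Of the SMAD list, SMAD4, SMURF1 and SKIL were measured and none was called in these comparisons either. SMURF1, a ubiquitin ligase for BMP SMADs, stood at 0.58 ± 0.24 with ICG-001 at 24 h (limma adjusted p = 0.111). The measured probe set for SMAD4 was dim, with group means of 3.38 to 28.7.

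Besides SOSTDC1, 6 of 18 listed secreted antagonists were measured, and KCP was the 1 that passed. KCP, a secreted chordin-like protein described in mice to enhance BMP signalling rather than block it, rose in all 3 main comparisons. Its log2 change was 0.41 ± 0.10 at 6 h (limma adjusted p = 0.00412) and 0.71 ± 0.10 at 24 h (adjusted p = 9.28e-06) with ICG-001. With CTNNB1 siRNA it was at 66.2 ± 6.63, against 27.3 ± 4.36 with control siRNA (SD, n = 2 each; 0.87 ± 0.12 SE, limma adjusted p = 4.01e-05), a change that was 0.56 with 64 added before log2. The KCP change was 0.89 ± 0.20 with the siRNA arrays fitted alone (limma adjusted p = 0.0324). CRIM1 stayed at -0.20, -0.21 and -0.02, and GREM1, FST, FSTL1 and VWC2 were dim and not called.

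Besides MSX1, 7 of 17 listed BMP-responsive transcription factors were measured. GATA2, a zinc finger factor, fell in all 3 comparisons. It was at 27.8 ± 4 with ICG-001 and 80.1 ± 4.62 with DMSO at 6 h (SD, n = 3 each; log2 change -1.08 ± 0.13 SE, limma adjusted p = 4.25e-06). At 24 h its change was -1.05 ± 0.13 (adjusted p = 4.07e-06). With 64 added before log2 these changes were -0.60 and -0.68. With CTNNB1 siRNA it was at 37.1 ± 1.07, against 157 ± 37.8 with control siRNA (SD, n = 2 each; -1.47 ± 0.16 SE, limma adjusted p = 4.02e-06). The siRNA arrays fitted alone gave -1.73 (limma adjusted p = 0.000684).

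DLX1, a homeobox factor of a family close to MSX1, fell with ICG-001 at 6 h (-0.75 ± 0.10, limma adjusted p = 8.78e-06) and at 24 h (-1.10 ± 0.10, adjusted p = 3.92e-08). With CTNNB1 siRNA it was at 0.14 ± 0.12 (adjusted p = 0.567). The other measured factors, ID4, DLX6, HES1, ATOH8 and RUNX2, were not called in these comparisons. DLX6, ATOH8 and RUNX2 were dim, with no group mean above 39.3, so a change in them could be missed. ID4, of the ID family that BMP signals induce, was at 0.23 and 0.22 with ICG-001 and at 0.11 with CTNNB1 siRNA.

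On the Wnt side, where SOSTDC1 also acts, 10 of 32 listed receptors and extracellular antagonists were measured. With ICG-001 0 rose and 2 fell at 6 h (20% called, against 13.8% of all genes), and 0 rose and 3 fell at 24 h (30%, against 20.5%). With CTNNB1 siRNA 1 rose and 2 fell (30%, against 12%). The list's median change was -0.02, -0.18 and -0.15. RNF43 had the falls closest to those of BMP4, at -1.27, -1.22 and -1.46 (± 0.12 SE, limma adjusted p = 1.09e-07 in the last). LGR5, a receptor for R-spondins, was at 47.3 ± 2.57 with CTNNB1 siRNA, against 156 ± 51.9 with control siRNA (SD, n = 2 each; -1.20 ± 0.14 SE, limma adjusted p = 1.08e-05). The siRNA arrays fitted alone gave -1.76 for RNF43 (limma adjusted p = 0.000193) and -1.46 for LGR5 (limma adjusted p = 0.00298).

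LGR5 in DMSO was higher at 24 h by 1.49 ± 0.12 (limma adjusted p = 4.6e-08), alongside SOSTDC1 at 1.52. Its second probe set gave -0.08, -0.47 and -0.85 in the 3 main comparisons, against -0.96, -1.95 and -1.20 for the one used, whose 6 h change was -0.64 with 64 added before log2. FZD1, a Wnt receptor, fell with ICG-001 at 24 h (-0.74 ± 0.25, limma adjusted p = 0.0442), but its other probe set stood at 0.02, and with 64 added the change was -0.42. That call was lost when any array but DMSO replicate 2 was left out (adjusted p up to 0.14), and in the deposited scaling (-0.67, adjusted p = 0.0581). SFRP1, a secreted Wnt antagonist, rose with CTNNB1 siRNA to 26.5 ± 1.12, against 11.6 ± 6.70 with control siRNA (SD, n = 2 each; 0.93 ± 0.24 SE, limma adjusted p = 0.0137). With 1 added before log2 the change was 1.5, and with 64 added 0.45. Its call was lost in the deposited scaling (0.65, adjusted p = 0.0929), with median centring (0.65, adjusted p = 0.0808), with the siRNA arrays fitted alone (0.63, adjusted p = 0.312) and without control siRNA replicate 1 (0.58, adjusted p = 0.148) or CTNNB1 siRNA replicate 2 (0.92, adjusted p = 0.0636).

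**Figure D4:**
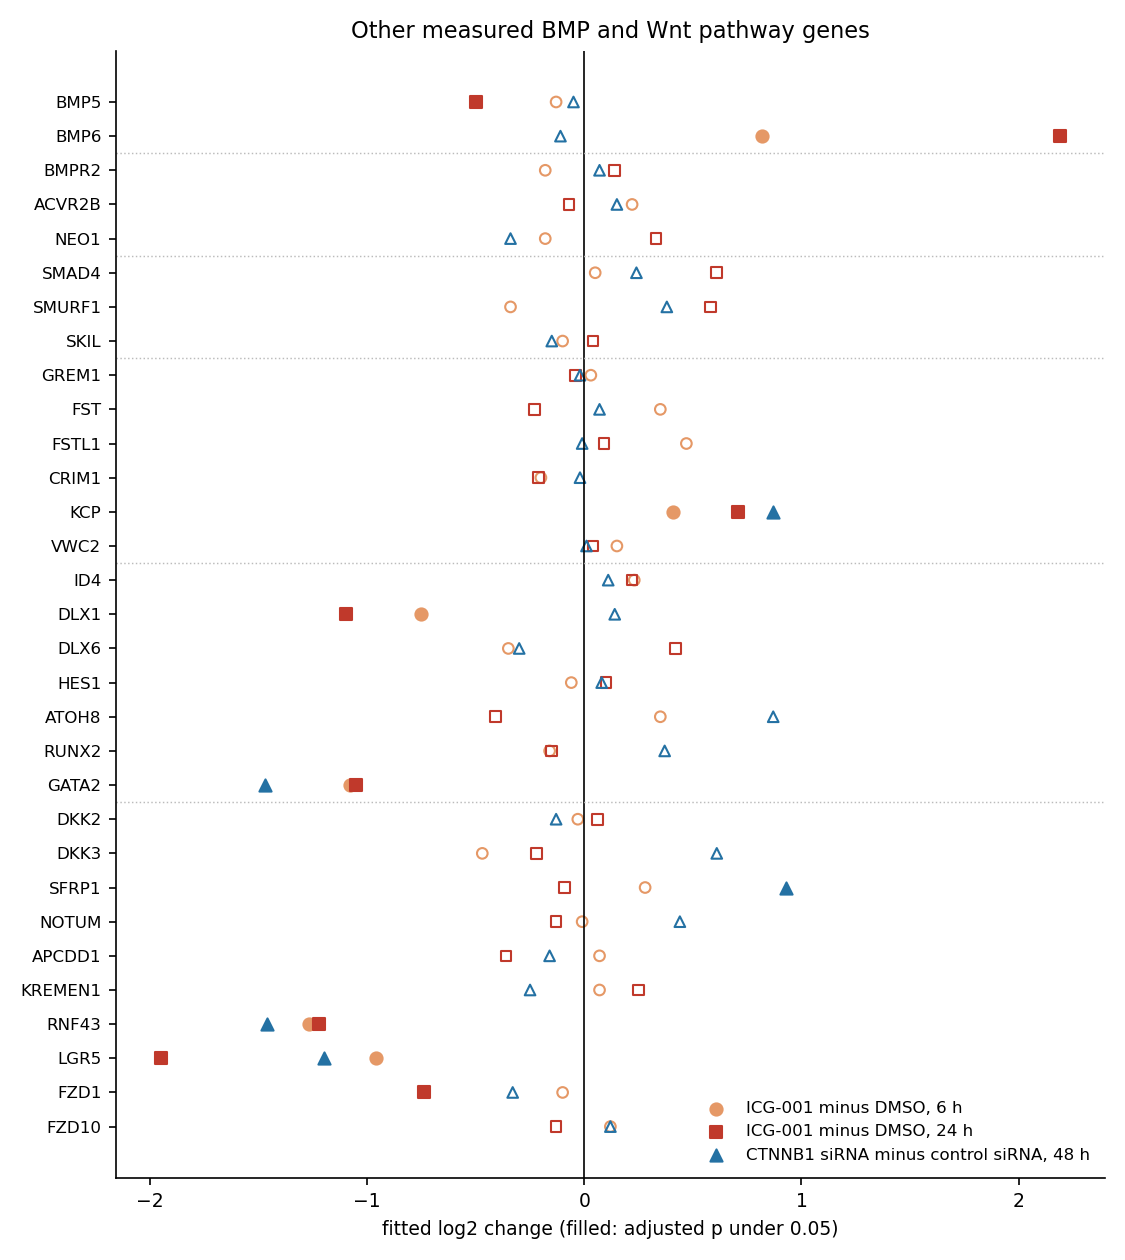
Fitted log2 change of the 31 other measured BMP and Wnt pathway genes with ICG-001 at 6 h and 24 h and with CTNNB1 siRNA, grouped by list with dotted lines between lists, filled where the adjusted p was under 0.05. BMP6 lies farthest to the right, at 2.19 with ICG-001 at 24 h, and GATA2, RNF43 and LGR5 lie to the left in all 3 comparisons.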

How the data were processed

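The authors deposited linear intensity values, 1 per probe set and array, with biotin labelling by the Affymetrix procedure per the labels. How probes were summarised, background-corrected and scaled is unknown here. All 9554 probe sets had a coefficient of variation of at least 0.4 over the 16 arrays, so the table is a selection. Probe sets with 1 gene numbered 6442, those with several 252 and those with none 2860, and symbols of 6432 were matched through gene identifiers.

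The number 16 was added before log2. Array medians differed by 0.64 over all 16 arrays, above the limit of 0.5 set for it, so quantile normalization was applied. The spread was 0.28 among the drug arrays and 0.02 among the siRNA arrays, so it lay mostly between the experiments. The probe set with the highest mean was kept for each gene. All 6 groups were fitted in a single limma 3.58.1 model (R 4.3.3) with an intensity trend, 10 residual and 7.84 prior degrees of freedom, two-sided tests and Benjamini-Hochberg adjustment over 5250 genes. Genes called had an adjusted p under 0.05. As a check of the code, the fit was run on simulated data with the same spread in all groups for each gene. That check does not cover spreads that differ between groups, as those of BMP4 did.

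The 3 genes and the lists were chosen with earlier results of these data known. Named list genes were up to 4 called genes per list and comparison with the largest change, and like genes the 5 with the highest Pearson r. Same-numbered replicates deviated from their group means with correlations of -0.04 to 0.09 and were not treated as pairs. The number of arrays limits the precision.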

Additional observations from a re-analysis of the deposited data

Results flagged for a closer look

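MSX1 was set apart because its arrays moved in opposite directions in the separate experiments. Every ICG-001 array lay below every DMSO array of its time (log2 change -1.41 at 6 h and -1.56 at 24 h). Every CTNNB1 siRNA array lay above every control siRNA array (0.39). The same held for 11.4% of all genes at 6 h, 11.7% at 24 h and 23.8% with CTNNB1 siRNA. The difference between the experiments was not tested, and the siRNA change missed the test in the main scaling.

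For BMP6 and LGR5 the drug effect differed between times in the model across all genes. The interaction, the effect at 24 h minus that at 6 h, was 1.38 ± 0.11 for BMP6 (± SE, limma adjusted p = 8.09e-08), which was higher with ICG-001 on all arrays at both times. It was -0.99 ± 0.17 for LGR5 (limma adjusted p = 0.00051), whose other probe set had a smaller drug change at both times, -0.47 at 24 h and -0.08 at 6 h. Of all genes 7.81% had a called interaction.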

How the results depend on the processing

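Every fitted change of BMP4, SOSTDC1 and MSX1 with ICG-001 against DMSO and with CTNNB1 siRNA against control siRNA kept its sign under all alternatives run. Changes at 6 h and at 24 h with ICG-001 moved beyond the replicate spread as follows. For BMP4 they were -1.02 and -0.91 in the deposited scaling, -1.03 and -1.04 with arrays centred on their medians, and -1.46 and -1.50 with the experiments fitted apart or the 2 groups alone, and the 24 h value was -1.38 with 64 added. For SOSTDC1 they were -3.51 and -4.65 with 1 added and -1.38 and -2.57 with 64 added. For MSX1 they were -1.60 and -1.83 with 1 added and -1.04 and -1.08 with 64 added, and the 6 h value was -1.24 in the deposited scaling and -1.25 with median centring. The drug by time difference of BMP4 was 0.10 in the deposited scaling. The MSX1 siRNA change was newly called at 0.46 in the deposited and the median-centred scaling, at 0.33 with 64 added and at 0.39 without dim genes.

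BMP pathway genes that rose numbered 5 at 24 h in the deposited scaling, and 2 with CTNNB1 siRNA both with 64 added and with a gene's probe sets averaged. Leaving out 1 array at a time gave MSX1 in DMSO over time -0.39 to -0.18, and 1 to 2 BMP pathway genes that fell with CTNNB1 siRNA. Where that left 1 siRNA array in a group, it was assumed to vary like the other groups. Over all genes, falls with ICG-001 at 6 h numbered 432, against 244 in the deposited scaling and 222 with median centring. At 24 h the 484 rises and 592 falls became 738 and 385 in the deposited scaling. With CTNNB1 siRNA the 325 rises and 306 falls became 150 and 153 with the experiments apart, and the falls numbered 182 with median centring. With the replicate number as a block, the siRNA changes were -2.15, -0.53 and 0.39 for BMP4, SOSTDC1 and MSX1 (limma adjusted p = 7.4e-10, 0.159 and 0.0963), and no siRNA call of the 3 genes changed.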
